A study of Homo sapiens with 8 samples.

Results

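The major histocompatibility complex (MHC) was examined in U2OS, a human osteosarcoma cell line, through 793 of the 98024 peaks in 4 deposited peak lists. The members were all peaks whose midpoint lay on chromosome 6 between 28.5 and 33.5 Mb (hg19), together with all MeDIP peaks on the 7 alternative chromosome 6 haplotype sequences of that build. The MeDIP list gave 123 peaks in the chromosome 6 window and 630 on the haplotypes, out of 75555. The ORCA lists gave 22 of 10740 peaks at early G1, 16 of 10382 at mid G1 and 2 of 1347 at late G1, all in the chromosome 6 window.

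ORCA ChIP-seq was done on U2OS cells synchronized at early, mid and late G1, and MeDIP-seq on U2OS cells for which the labels give no stage. All samples were of this cell line, with no genotype or treatment beyond the synchronization named in the labels. Each of these 4 samples had an input sample, and each group held 1 sample, so that no difference could be set against a spread between replicates. The number of reads and the control library behind each list are not stated in the labels. All intervals are 95% intervals that cover counting error only, over peaks that are not independent of their neighbours.

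The MHC is the gene-dense stretch of chromosome 6 that carries the most polymorphic genes of the human genome. Its class I part encodes the HLA molecules that present peptides from inside the cell to cytotoxic T cells, its class III part holds complement, cytokine and heat-shock genes and a block whose copy number varies between people, and its class II part encodes the HLA molecules that present peptides to helper T cells along with the machinery that loads them. Because these parts differ so much between people, the hg19 build holds 7 further assemblies of the region, made from other haplotypes and named 6_apd_hap1, 6_cox_hap2, 6_dbb_hap3, 6_mann_hap4, 6_mcf_hap5, 6_qbl_hap6 and 6_ssto_hap7, beside the haplotype that is part of chromosome 6. In MeDIP an antibody pulls down fragments with methylated cytosine, so that a peak marks a stretch with many methylated CpG sites. ORCA (LRWD1) is a partner of the origin recognition complex, the protein complex that marks replication origins and helps to load the replicative helicase there in G1.

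A fragment from the MHC can match several of these 8 sequences equally well. How the submitters' alignment treated such reads, by leaving them out, placing them at random or counting them at each match, is not given in the sources used here. All 8 sets of MeDIP peaks come from 1 library, and the haplotypes that U2OS itself carries were not analysed here. A difference between copies in these lists is therefore a difference between called peaks, in which read placement, sequence and methylation cannot be told apart.

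Methylated peaks were denser in the window than on the rest of chromosome 6 and densest in its class III part. The window had 24.6 MeDIP peaks per Mb and was covered by peaks over 1.95% of its length, against 16.2 peaks per Mb and 1.60% on the rest of chromosome 6, where 2685 peaks lay. The parts were set by rounded distances from the window's start and not by genes, as no hg19 annotation was used here. The class I part, from 28.5 to 31.5 Mb, held 56 peaks or 18.7 per Mb. The class III part, from 31.5 to 32.2 Mb, held 48 peaks or 68.6 per Mb, and 5.60% of it was covered. The class II part, from 32.2 to 33.5 Mb, held 19 peaks or 14.6 per Mb, a value below that of the rest of the chromosome.

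Within the parts the peaks were uneven. The extended class I stretch, which is the first 1 Mb of the window, held 18 peaks, and the 2 Mb of class I behind it held 38, so that both stretches had nearly the same density (18 and 19 per Mb). In class III the 100 kb bins from 31.5 to 32.2 Mb held 4, 5, 5, 7, 10, 14 and 3 peaks, so that 41 of its 48 peaks lay between 31.6 and 32.1 Mb. Class II was split into an almost empty stretch of 0.8 Mb with 2 peaks and a last stretch of 0.5 Mb with 17 peaks, or 2.5 and 34 per Mb. Of the 50 bins of 100 kb in the window, 11 held no MeDIP peak and 8 held 5 or more.

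Set beside other 1 Mb bins with a MeDIP peak on chromosomes 1 to 22 and X, the window was above the middle but not extreme. Its 5 bins held 18, 18, 20, 48 and 19 peaks, against a median of 11 over 2681 bins and of 8 over the 151 such bins of chromosome 6 outside the window. The bin from 31.5 to 32.5 Mb, which contains class III, had more peaks than 82.5% of all these bins. The bins that border the window were denser than most of it, with 38 peaks before it and 80 after it.

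**Figure D1:**
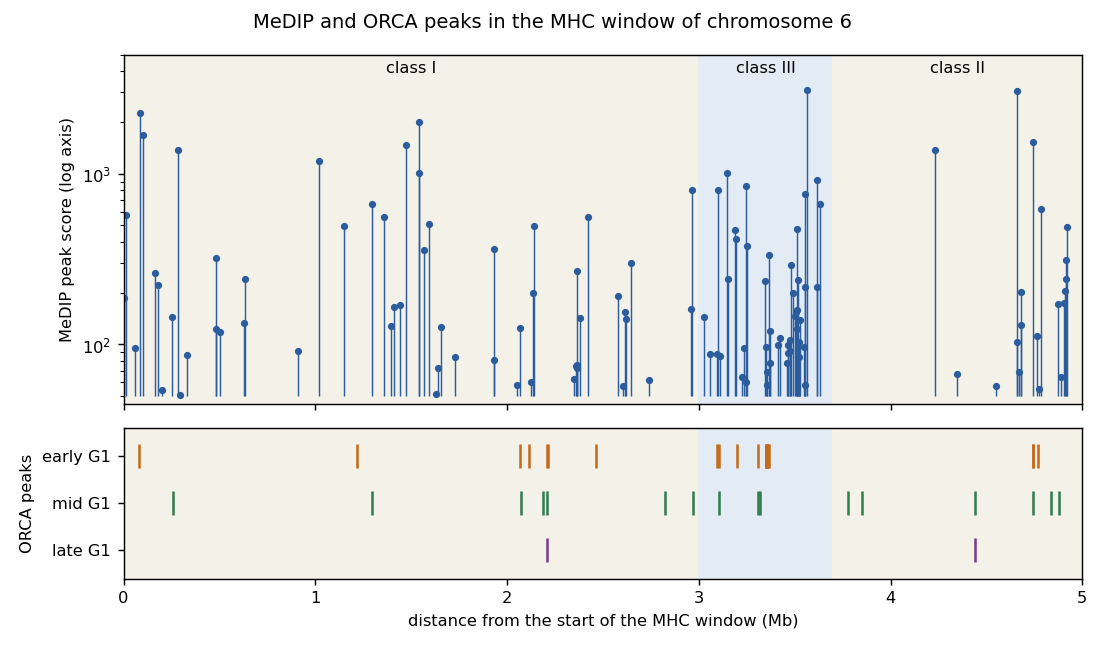
MeDIP and ORCA peaks by distance from the start of the chromosome 6 window (x axis, Mb). In the upper panel each stem is 1 of 123 MeDIP peaks and its height is the peak score on a log axis; in the lower panel each tick is 1 ORCA peak at early, mid or late G1 (22, 16 and 2 peaks). MeDIP peaks crowd into the shaded class III part (48 peaks) and leave 593.5 kb empty behind it, where 2 mid ORCA ticks stand.

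The longest stretch of the window without a MeDIP peak ran from 32135509 to 32729057, over the end of class III and the beginning of class II, and was 593.5 kb long. Few gaps elsewhere on the chromosome were that long: 46 of 2683 gaps between neighbouring peaks outside the window reached this length. The median gap was 13.02 kb in the window and 9.06 kb outside it. The same place was sparse on the haplotypes. After the counterpart of the last peak before the gap, the next peak followed after 568.8 kb on 6_cox_hap2, 372.5 kb on 6_mann_hap4, 371.7 kb on 6_mcf_hap5, 329.0 kb on 6_apd_hap1 and 328.9 kb on 6_qbl_hap6. On 6_dbb_hap3 that peak had no counterpart, and 387.3 kb followed the counterpart of an earlier peak, which ends at 32118871 on chromosome 6. Where both flanks had counterparts, 6_mann_hap4 held 3 peaks and 6_qbl_hap6 held 1 peak inside the stretch that was empty on chromosome 6. The highest of these 4 peaks scored 382. On haplotypes without both flanks, higher peaks were laid inside this stretch, such as 1 of 1229 on 6_dbb_hap3 at 4.115 Mb from the window's start. On 6_ssto_hap7 the match gave the flanking peaks no counterparts, so that its gap was not measured. An unmatched peak there, from 3481900 to 3483452 with a score of 707, was laid near the last peak before the gap. It may be a missed counterpart, and the next peak on 6_ssto_hap7 began at 3855356.

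Taken as a whole, MeDIP peaks of the MHC were narrower and less often of high score than those of the rest of chromosome 6, though not equally in each part. The score is the caller's own value per peak, at least 50 in this list, and was compared only within the list. The median score was 155 in the window and 159 on the haplotypes, against 165 on the rest of chromosome 6 and 187 in the whole list. A score of 1000 or more was reached by 12 of 123 window peaks (9.76%, Wilson interval 5.67 to 16.3%) and 66 of 630 haplotype peaks (10.5%, 8.32 to 13.1%), against 452 of 2685 on the rest of chromosome 6 (16.8%, 15.5 to 18.3%). The window differed from the rest of the chromosome by -7.08 percentage points (Newcombe interval -11.4 to -0.412). The median width was 719 bp in the window and 700 bp on the haplotypes, against 817 bp on the rest of chromosome 6. Peaks of 1 kb or more made up 22.8% of the window's peaks and 33.6% of those on the rest of the chromosome, a difference of -10.8 points (-17.6 to -2.44).

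Wider peaks had higher scores in each set, with a Spearman rho across peaks of 0.687 in the window, 0.680 on the haplotypes and 0.608 on the rest of chromosome 6. These are descriptions across peaks of 1 library. Class III combined the highest density with the lowest median score, 132, while class I had 164 and class II 175. The shares at 1000 or more were 7 of 56 peaks in class I (12.5%), 2 of 48 in class III (4.17%) and 3 of 19 in class II (15.8%). The share of class III was thus the lowest, and that of class II was close to the 16.8% on the rest of chromosome 6. Median widths were 679 bp in class I, 761 bp in class III and 806 bp in class II, the last close to the 817 bp on the rest of chromosome 6.

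The 7 haplotypes carried between 42 and 110 MeDIP peaks. Per Mb of the span from first to last peak, there were 22.8 peaks on 6_qbl_hap6, 22.6 on 6_cox_hap2, 22.5 on 6_ssto_hap7, 22.2 on 6_dbb_hap3, 20 on 6_mcf_hap5, 15.9 on 6_mann_hap4 and 10.3 on 6_apd_hap1, against 25.02 in the chromosome 6 window measured the same way. The first 4 of these lay within 1 peak per Mb of each other, and 6_mann_hap4 and 6_apd_hap1 stood below them. How many bases of each sequence are known was not analysed here, and part of a span may hold no sequence to which a read could match. Counting only the 100 kb bins that hold a peak, the densities were 33.1 on 6_cox_hap2, 32.4 on 6_ssto_hap7, 30.3 on 6_dbb_hap3, 29.2 on 6_qbl_hap6, 28.5 on 6_mcf_hap5, 23.5 on 6_mann_hap4 and 21.0 on 6_apd_hap1, against 31.5 in the chromosome 6 window. The 2 lowest haplotypes were the same by either measure, although the density of 6_apd_hap1 relative to the window was 0.412 per span and 0.666 per occupied bin.

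To find which haplotype peaks stand for the same place, each haplotype's peaks were laid on the chromosome 6 window. With a single constant offset per haplotype, 210 of 630 peaks fell within 500 bp of a window peak, between 16 and 43 per haplotype, while the next best offset at least 100 kb away gave 70 in all. The offset was allowed to change along the sequence in a chained match, whose settings were chosen after seeing the data, and 495 of 630 peaks (78.6%) then had a counterpart. The shares ran from 64.5% on 6_ssto_hap7 to 84.9% on 6_cox_hap2. The low share on 6_ssto_hap7 may be partly counterparts that the match missed. Its unmatched peaks laid at 2.054, 2.072, 2.135 and 2.141 Mb from the window's start stood beside matched places. On 6_dbb_hap3 the matched peaks there lay at 2.052, 2.070, 2.133 and 2.139 Mb. Laid in the same way on the 5 Mb after the window and on the 5 Mb before it, 131 and 91 haplotype peaks were matched, or 20.8% and 14.4%. The fitted offset ranged over 24.4 kb in 6_dbb_hap3 and up to 170.5 kb in 6_mcf_hap5. False matches can widen this range, and whether the spacing of the peaks itself differed between haplotypes was not tested.

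**Figure D2:**
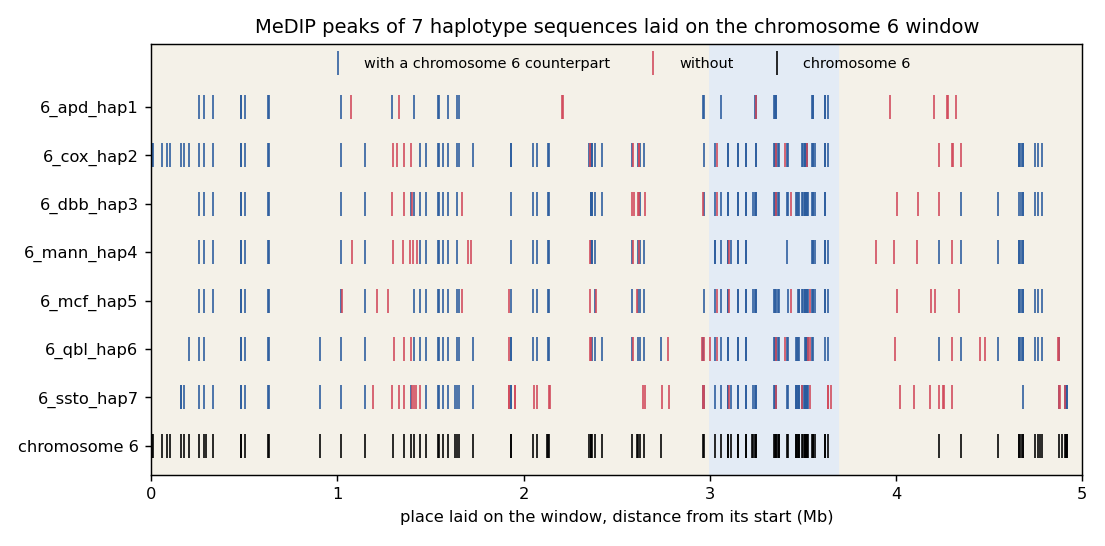
Place of each MeDIP peak of the 7 haplotypes after laying on the chromosome 6 window (x axis, Mb from the window's start), with chromosome 6 in the lowest row. Blue ticks are the 495 haplotype peaks with a chromosome 6 counterpart, red ticks the 135 without, black ticks the 123 window peaks; the shaded stretch is class III. Columns of blue ticks run through most rows, and no red tick stands in the first 1 Mb.

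Once laid out, the haplotypes had a large share of their peaks in class III for its length, as chromosome 6 did. Each of the 495 matched peaks was put in the part of its window peak, so that this likeness is largely built in. Class III, 0.7 Mb of 5 Mb, took 40 of 106 peaks on 6_cox_hap2, 45 of 100 on 6_dbb_hap3, 44 of 94 on 6_mcf_hap5, 37 of 105 on 6_qbl_hap6, 43 of 110 on 6_ssto_hap7 and 15 of 42 on 6_apd_hap1, against 48 of 123 on chromosome 6. The lowest share, 26.0%, was that of 6_mann_hap4, with 19 of 73. The low total of 6_mann_hap4 was thus mostly a low count in class III, since its class I count of 42 was close to the 43 of 6_dbb_hap3 and its class II count of 12 equalled those of 6_cox_hap2, 6_dbb_hap3 and 6_mcf_hap5. On 6_apd_hap1 all 3 parts were low, with 22, 15 and 5 peaks. The haplotypes did not reach equally far: 6_cox_hap2 had its first laid peak 0.005 Mb from the window's start, 6_ssto_hap7 at 0.162 Mb, 6_qbl_hap6 at 0.202 Mb and the other 4 at 0.254 Mb, so that 5 to 8 window peaks lay before the first peak of those 6. Likewise the last laid peak stood at 4.32 Mb on 6_apd_hap1, with 18 window peaks beyond it, and at 4.92 Mb on 6_ssto_hap7, with none beyond it.

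Most window peaks were repeated on at least 1 haplotype. Of the 123, 114 (92.7%) had 1 or more counterparts, 58 had 5 or more and 12 had a counterpart on all 7. Those 12 all lay in class I. Window peaks found on 6 or 7 haplotypes had a median score of 243, those on 1 to 5 haplotypes 151, and the 9 without a counterpart 60.4. The scores did not rise steadily with the number of counterparts: the 15 peaks on 1 haplotype had a median of 205 and the 11 on 3 haplotypes 91.8. A copy slightly below the caller's floor of 50 would not be in the list, but whether such copies exist was not tested. Among the 9 without a counterpart, the highest was the class I peak from 29856153 to 29856832, which scored 558 on chromosome 6. Unmatched peaks on 4 haplotypes, scoring 416 to 948, were laid close to it, 1.358 Mb from the window's start. The match may thus have missed its counterparts.

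The scores of counterparts followed each other. Over 486 pairs, the haplotype's score was a median of 0.982 times that on chromosome 6, with quartiles of 0.773 and 1.27, and it was the higher one in 221 pairs. In 322 pairs (66.3%) the scores were within 1.5 times of each other, and in 34 they differed by more than 3 times. Some pairs may be false matches, as the matches were not checked by sequence. The 6_apd_hap1 peak from 1213835 to 1215638, for example, was 1804 bp wide and scored 1239. Its window counterpart, from 29911185 to 29911687, was 503 bp wide and scored 166. The Pearson correlation of log scores across the pairs of a haplotype lay between 0.753 on 6_ssto_hap7 and 0.912 on 6_cox_hap2, and Spearman's rho between 0.727 and 0.873. Both values of a pair come from 1 library and may share reads, so that these correlations are descriptions. Of the pairs, 4 had identical scores, all at 3100, and 2 had identical widths. Whether the 2 peaks of a pair rest on the same reads was not tested.

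**Figure D3:**
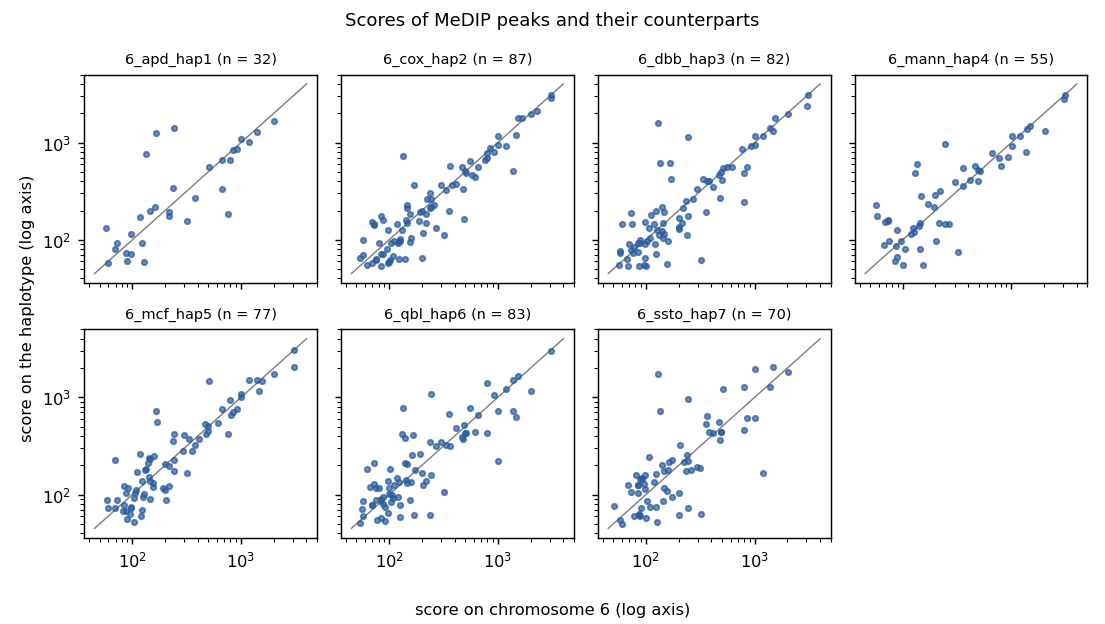
Score of each haplotype MeDIP peak (y axis, log) against the score of its chromosome 6 counterpart (x axis, log), 1 panel per haplotype with its number of pairs; the grey line marks equal scores. Most points lie near the line and 34 of 486 lie more than 3 times away from it, with 6_ssto_hap7 the most scattered and 6_cox_hap2 the least by Pearson's r.

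The highest peak of class III, from 32063199 to 32065096, was 1898 bp wide and scored 3100 on 6_cox_hap2, 6_dbb_hap3, 6_mann_hap4 and 6_mcf_hap5 as well as on chromosome 6. It had no counterpart on the other 3. The 4 pairs at 3100 were the only pairs of equal score, and 3100 is also where the ORCA lists end, so that equal values there may hide a difference. The highest peak of class II, from 33160608 to 33161501, scored 2846 on 6_cox_hap2, 2397 on 6_dbb_hap3, 2809 on 6_mann_hap4, 2057 on 6_mcf_hap5 and 3026 on 6_qbl_hap6, against 3056 on chromosome 6. In class I the peak from 30042074 to 30043584 was found on all 7 haplotypes, with scores of 1158 to 1989, against 2026 on chromosome 6. The highest of class I, from 28583486 to 28584325, scored 2122 on 6_cox_hap2 and 2277 on chromosome 6, and the third of class I, from 28601048 to 28601814, scored 1771 and 1681 there; both lie before the first laid peak of the other 6 haplotypes.

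Next in class III came 4 peaks of moderate score that recurred on 5 or 6 haplotypes. They were the peak from 31648808 to 31649700, at 607 to 1182 on the haplotypes and 1006 on chromosome 6, and the peak from 32116618 to 32117675, at 704 to 1052 and 922. The peak from 31746729 to 31747743 scored 566 to 879 on haplotypes and 850.4 on chromosome 6, and the peak from 31598894 to 31599941 scored 429 to 686 and 802. This last peak was higher on chromosome 6 than on each of its 6 counterparts. The widest peak of the window, 1916 bp from 32011635 to 32013550, also scored higher on chromosome 6, at 475, than on its 5 counterparts, at 272 to 416.

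The remaining high peaks of class II were matched on fewer haplotypes. The peak from 33244637 to 33246307 scored 1458 to 1791 on 4 haplotypes and 1546 on chromosome 6. The peak from 32729058 to 32729954, which ends the long gap, scored 797 on 6_mann_hap4 and 725 on 6_qbl_hap6, against 1372 on chromosome 6. Unmatched peaks on 6_cox_hap2 and 6_dbb_hap3, at 1391 and 684, were laid close to it without overlap. They may be copies that the match missed. The peaks from 33282496 to 33283722 and from 33419218 to 33420107 scored 444 to 557 on 4 haplotypes and 444 on 6_ssto_hap7, against 620.0 and 488 on chromosome 6.

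Other places differed several-fold between copies, and most of these lay in class I. For the 32 window peaks with 6 or 7 counterparts, the highest score of the copies was a median of 2.36 times the lowest, with a range of 1.39 to 9.06. The ratio was 3 or more for 11 of 17 such peaks in class I, with a median of 3.25, and for 1 of 14 in class III, with a median of 1.90. The 1 such peak of class II had a ratio of 3.27. A false match can raise such a ratio, and the matches were not checked by sequence. The peaks described in the next paragraphs were chosen from these 32 for their spread, after their values were seen.

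A pair of neighbouring class I peaks separated the copies into a low and a high set. The peak from 29127493 to 29128064 scored 757 on 6_apd_hap1, 729 on 6_cox_hap2, 623 on 6_dbb_hap3, 604 on 6_mann_hap4, 182 on 6_mcf_hap5, 775 on 6_qbl_hap6 and 723 on 6_ssto_hap7, against 134 on chromosome 6. Here 6_mcf_hap5 and chromosome 6 were low and the other 6 copies high, with no score between 182 and 604. The peak from 29133197 to 29133972 scored 1413 on 6_apd_hap1, 265 on 6_cox_hap2, 1131 on 6_dbb_hap3, 975 on 6_mann_hap4, 417 on 6_mcf_hap5, 1076 on 6_qbl_hap6 and 969.8 on 6_ssto_hap7, against 243 on chromosome 6. The same copies were low and high as at the neighbouring peak, except that 6_cox_hap2 was among the low ones.

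At other places 1 or 2 copies stood apart. The peak from 29520910 to 29522189 scored 168 on 6_ssto_hap7 and between 929 and 1520 on the other 6 haplotypes, against 1187 on chromosome 6. The peak from 30038643 to 30039960 scored 222 on 6_qbl_hap6 and 1959 on 6_ssto_hap7, with the other 5 haplotypes between 917 and 1155 and chromosome 6 at 1010.3. The peak from 28984255 to 28984879 ran the opposite way to the pair above, at 61.8 to 167 on the 7 haplotypes, against 322 on chromosome 6. At the peak from 31465916 to 31466271, 6_dbb_hap3 scored 244 and the other 5 haplotypes with a counterpart 665 to 1400, against 799.9 on chromosome 6.

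**Figure D4:**
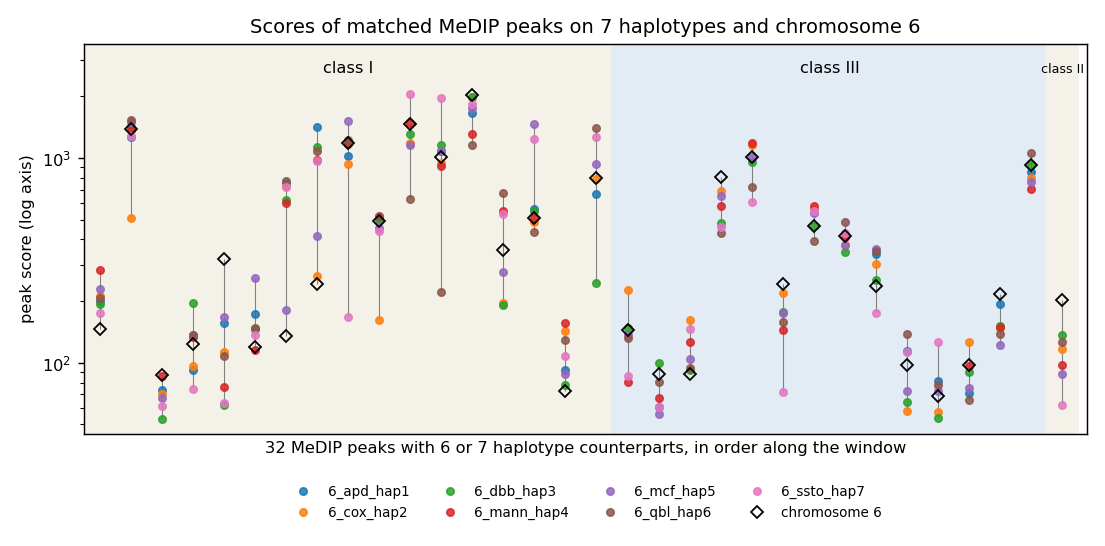
Peak scores (y axis, log) of the 32 window MeDIP peaks with 6 or 7 haplotype counterparts, in order along the window; circles are the 7 haplotypes, open diamonds chromosome 6, and each grey line spans the copies of 1 peak. The lines are longer in class I (median ratio of highest to lowest 3.25) than in the shaded class III part (1.90).

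The 135 haplotype peaks without a chromosome 6 counterpart had lower scores. Their median score was 102, against 177 for the haplotype peaks with a counterpart. They fell into 104 places once laid on the window, of which 86 were on 1 haplotype, 10 on 2 and 8 on 3 or more. None was laid in the first 1 Mb of the window. By part, 73 were in class I, 26 in class III and 36 in class II. Unmatched peaks were 36 of 88 haplotype peaks in class II, 73 of 299 in class I and 26 of 243 in class III. An unmatched peak can also be a counterpart whose place the laying missed, because laid places between anchors are only as exact as the nearest offset. For the same reason peaks of 1 place can be counted as several places on 1 haplotype each, so that 86 may be too many.

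Of the unmatched peaks, 10 scored 1000 or more, 6 in class I and 4 in class II. The highest was the 3073 bp peak from 1330620 to 1333692 on 6_cox_hap2, which was also the widest of all haplotype peaks, at a score of 3100. Another, from 1311056 to 1312761 on the same haplotype, scored 1346. A group of 3 had similar own coordinates on their haplotypes, although the laying put them at separate places: 1095880 to 1097317 on 6_dbb_hap3 with a score of 1228, 1095587 to 1097149 on 6_mcf_hap5 with 1274 and 1095652 to 1097497 on 6_qbl_hap6 with 1567. On 6_mann_hap4 a peak from 1095586 to 1096949 scored 819. On 6_apd_hap1 a peak from 1098122 to 1098909 was matched to the window peak from 29795248 to 29796757, which scored 662. The group and the peak on 6_mann_hap4 may be copies of this window peak that the laying missed. The same holds for the peak from 1311056 on 6_cox_hap2 and for one from 1132821 on 6_ssto_hap7, which scored 996. In class II the unmatched high peaks lay on 6_apd_hap1 from 4017328 to 4018238 with a score of 1402, on 6_cox_hap2 from 4175030 to 4175863 with 1391, on 6_dbb_hap3 from 3896673 to 3897021 with 1229 and on 6_ssto_hap7 from 4160794 to 4161573 with 1529. Laid on the window, these 4 fell at 4.203, 4.232, 4.115 and 4.181 Mb from its start. That was inside the empty stretch of chromosome 6, except on 6_cox_hap2, where it was just beyond. The one on 6_cox_hap2 was laid close to the window peak that ends this stretch without overlapping it. The peaks on 6_apd_hap1, 6_cox_hap2 and 6_ssto_hap7 had scores near the 1372 of that window peak. They may be copies of it that the laying missed. The place 1.358 Mb from the window's start was unmatched on 4 haplotypes, 6_cox_hap2, 6_dbb_hap3, 6_qbl_hap6 and 6_ssto_hap7, with scores of 416 to 948. It lies close to the window peak from 29856153 to 29856832, whose counterparts these may be.

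ORCA peaks were called in the window but on none of the haplotypes. Each ORCA list held 0 peaks on sequences other than chromosomes 1 to 22, X and Y, while the MeDIP list held 938 there. Whether the ORCA reads were aligned to the haplotype sequences is not given in the sources used here, so that ORCA and MeDIP peaks of the MHC may rest on different sets of reads. In the window there were 4.4 early, 3.2 mid and 0.4 late ORCA peaks per Mb, against 1.27, 1.13 and 0.199 per Mb on the rest of chromosome 6. The late list is the shortest of the 3 and carries another caller label, so that the stages are given side by side and not compared for amount. Early peaks lay mostly in class III, with 7 in class I, 12 in class III and 3 in class II, while mid peaks were 7, 3 and 6 and late peaks 1, 0 and 1.

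The 12 early peaks in class III were largely a single cluster. A run of 8 early peaks stood between 31850344 and 31864636, over 14.3 kb, with scores of 59.1 to 889 and widths of 370 to 1271 bp. No mid or late peak lay in it. The highest peaks of the run, from 31855415 to 31856685 with a score of 889 and from 31863893 to 31864636 with 392, ranked in the first 0.596% and 1.49% of the early list. Without the run, the window held 14 early peaks and class III held 4. The run was defined after the data were seen, as 4 or more peaks with at most 5 kb between neighbours.

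The place bound at all 3 stages lay in class I, from 30709522 to 30712461. It held 2 early peaks with scores of 902 and 128, 1 mid peak with 1217 and 1 late peak with 624. The first early peak and the mid peak ranked in the first 0.587% and 0.453% of their lists, and the late peak in the first 4.45%. No MeDIP peak overlapped this place, and the nearest was 70.3 kb away. Merging overlapping peaks of the 3 lists gave 33 ORCA regions in the window, of which 29 were found at 1 stage, 3 at 2 stages and this one at 3.

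The 3 regions found at 2 stages were weaker. From 32939815 to 32940883 in class II, a mid peak scored 87.4 and a late peak 124. From 33244693 to 33245996, also in class II, 2 early peaks scored 56.9 and 69.6 and a mid peak 150.2. From 31810348 to 31811025 in class III, an early peak scored 59.2 and a mid peak 52.8, close to the floor of 50. Of the early peaks 5 of 22 (22.7%) overlapped a mid peak, against 32.6% of the early list. Without the run of 8 this was 5 of 14 (35.7%), on the other side of the list's share. Of the mid peaks 3 of 16 overlapped an early peak, against 32.6% of the mid list. Overlap with a late peak was 2 of 22 early peaks beside 8.91% of the early list, and 2 of 16 mid peaks beside 9.53% of the mid list. Of the 2 late peaks, 1 overlapped an early peak (65.4% in the late list) and 2 a mid peak (70.3%).

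**Figure D5:**
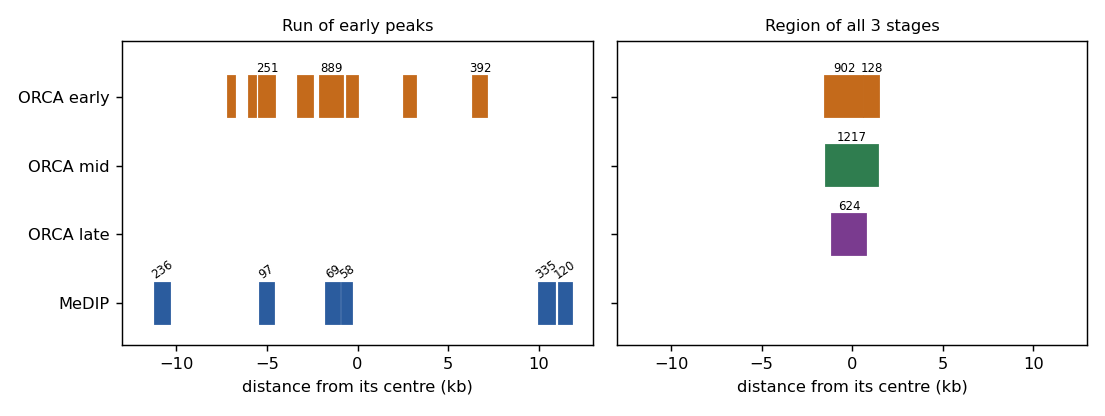
Peaks of the 4 lists around 2 places of the window, with distance from each place's centre on the x axis (kb) and the list on the y axis. Left, the run of 8 early ORCA peaks with the MeDIP peaks near it; right, the place called at all 3 stages. Numbers are peak scores, given for all peaks but 5 lower early ones of the run; mid and late rows are empty on the left, and the MeDIP row is empty on the right.

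Few ORCA peaks of the window lay on methylated peaks. An overlap of at least 1 bp with a MeDIP peak was found for 5 of 22 early peaks (22.7%, Wilson interval 10.1 to 43.4%), against 35.3% of the early list on chromosomes 1 to 22 and X. It was found for 3 of 16 mid peaks (18.8%, 6.59 to 43.0%), against 48.6% of the mid list, and for 0 of 2 late peaks (0 to 65.8%), against 47.9% of the late list. The window minus the rest was -12.6 points for early peaks (Newcombe interval -25.2 to 8.15), -29.9 points for mid peaks (-42.1 to -5.58) and -48.0 points for late peaks (-50.7 to 17.9). Only the mid interval left out 0, and it rests on 16 peaks. With only scores at or above each list's median, 2 of 6 mid peaks (33.3%) overlapped a MeDIP peak. In the other direction, 6 of 123 window MeDIP peaks overlapped an ORCA peak of any stage (4.88%, 2.25 to 10.2%), beside 8.04% of the MeDIP list, with a difference of -3.17 points (-5.80 to 2.19). By stage these were 4 with an early peak (beside 4.6% of the MeDIP list), 3 with a mid peak (6.03%) and 0 with a late peak (0.901%).

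The overlaps fell at 6 ORCA regions. At the region from 33244693 to 33245996, the 2 early peaks and the mid peak lay within the class II MeDIP peak that scored 1546 and recurred on 4 haplotypes. In the early run, 3 peaks touched MeDIP peaks of low score, at 96.9, 68.9 and 57.6, which had counterparts on 6, 6 and 5 haplotypes. The other 2 were mid peaks of class I. One, from 29795592 to 29796290 with a score of 87.0, lay on a MeDIP peak of 662, and the other, from 30570140 to 30570588 with a score of 65.3, lay on a MeDIP peak of 126. The highest MeDIP peaks of class I and class III named above overlapped no ORCA peak.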

How the data were processed

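ORCA ChIP-seq at early, mid and late G1 and MeDIP-seq were done in U2OS cells, each with an input. The inputs were not analysed here. Reads were trimmed with Trimmomatic and aligned with Bowtie 0.12.7, with GRCh37 and hg19 named as builds, per the submitters' processing notes. Peak names in the deposited lists start with MACS. Not given in the sources used here are the caller's version and settings, the read numbers and the handling of reads with several matches. Each score in the authors' deposited lists is read as a value of the caller for that peak, at least 50 in all 4 lists. Starts, counted from 0 in the files, are printed from 1.

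Peaks were assigned by midpoint and overlaps needed 1 bp. Intervals are Wilson for shares and Newcombe for differences. With 1 sample per group no test between groups was run. Background shares are over chromosomes 1 to 22 and X.

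Counterparts were first counted at the best constant offset. The chained match was added after seeing the data: pairs in order, an offset change beyond 200 bp costing 3.5 matches, then other peaks laid by the nearest anchor. Its settings were taken from 18 that were tried, as those with fewest matches to the next 5 Mb where no minimum stretch was set, so that its matched share is no independent measure.

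Named peaks were the 5 highest in each part, the 3 highest per haplotype, the 3 widest, and ORCA regions at more than 1 stage or with a MeDIP peak. Members and lists were chosen with earlier results of these data known. The planned gene list was not used, as no hg19 annotation was used here. Calculations used statsmodels 0.14.6, scipy 1.17.1, pandas 2.3.3 and numpy 2.4.6 under Python 3.11.15, with matplotlib 3.10.9 for figures.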

Additional observations from a re-analysis of the deposited data

How the results depend on the processing

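Of 69 values under alternative settings, 60 stayed within the limits set for a change and 9 moved. For densities of the parts, medians and shares, the limits were the 95% interval of the main value. For haplotype densities and for counts they were 1.5 times the main value either way. These limits are wide for shares of few peaks, above all the late ones, so that staying within them says little there. Relative to the window, 6_cox_hap2 had 0.901 and 6_ssto_hap7 0.897 of its density per span, but 1.05 and 1.03 per occupied bin. The early share with a mid peak was 35.7% without the run of 8, against 22.7%, and so passed the list's 32.6%. Relative to the whole window, the class III density was 2.79 and lay between 2.51 and 2.87 with the borders moved by 0.1 Mb, with only scores at or above the list's median, or with covered bases. Keeping only such scores left 11 of 22 early and 6 of 16 mid ORCA peaks, a loss the alternative makes by construction, and 1 of 11 early peaks (9.09%) then overlapped a MeDIP peak, as did 2 of 6 mid peaks (33.3%, against 18.8%). Within 1 kb instead of by overlap, the early share was 45.5%, against 22.7%. Leaving out the run of 8 early peaks, added after seeing the data, left 14 early peaks in the window and 4 in class III. The density of 6_apd_hap1 relative to the window was 0.666 per occupied bin, against 0.412 per span. At the constant offset, 125 haplotype peaks matched within 100 bp and 342 within 2000 bp, against 210 within 500 bp.

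The chained match gave 488 of 630 with a tolerance of 500 bp and 503 with a cost of 2.5, against 495. Before the laying step, the setting used gave 424 matches in the window, 86 on the next and 57 on the previous 5 Mb. A looser one (500 bp, cost 1.5) gave 507, 383 and 243. With stretches of at least 4 matches, 200 bp and a cost of 1.5 gave 429, 66 and 29, and so separated the window slightly better than the one used. No paired analysis was possible because each group held 1 sample, and no replicate could be left out. Read depth was unknown, so that a copy without a peak may lie just below the floor of the list.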

Other observations

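Within class III of chromosome 6, pairs of MeDIP peaks were often about 32.7 kb apart, a spacing noticed in the data and then counted. In classes 150 bp wide between 5 and 100 kb, the class from 32.7 kb held 6 pairs and the next fullest, from 15.9 kb, held 4. Between 32.6 and 32.86 kb there were 7 pairs on chromosome 6, 5 on 6_ssto_hap7, 3 on 6_mcf_hap5 and 1 each on 6_cox_hap2, 6_dbb_hap3 and 6_qbl_hap6. Of the 7, 5 belonged to a row of 6 peaks and its repeat: the peaks starting at 31960790, 31966696, 31975457, 31976947 and 31979000 scored 77.4, 98.9, 106, 91.8 and 293, and those about 32.7 kb further on scored 199.9, 147, 156, 123 and 475. The sixth peak of the row had no partner. In these 5 pairs the peak with the higher coordinate had the higher score. Over all 7 pairs on chromosome 6 it did so in 5, on 6_ssto_hap7 in 3 of 5, on 6_mcf_hap5 in 2 of 3, and in none of the single pairs on 6_cox_hap2, 6_dbb_hap3 and 6_qbl_hap6. The sequence at these places was not analysed here.

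The alternative sequence of chromosome 17 in the same list, 17_ctg5_hap1, held 61 MeDIP peaks, or 37.1 per Mb of span, with a median score of 159, beside 159 over the chromosome 6 haplotypes. Its median width was 680 bp, beside 700 bp over those haplotypes, and 13.1% of its peaks scored 1000 or more, beside 10.5%. Narrow peaks were thus not particular to the MHC.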
